A study of Mus musculus with 18 samples.

Results

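The heat shock chaperones of the cytosol were followed as 9 named genes: the Hsp70 chaperone Hspa8, its relatives Hspa4 and Hsph1, the Hsp90 chaperones Hsp90ab1 and Hsp90aa1, the co-chaperones Stip1, Dnaja1 and Dnajb1, and the small heat shock protein Hspb1. They were chosen by name out of 24035 genes in the deposited count tables, and all 9 were found there. Their levels were compared as ribosome-protected fragments (RPF, the stretches of mRNA that ribosomes shield from nuclease) and as total mRNA in cells labelled NIH3T3, an established line of mouse fibroblasts. There were 3 groups with 3 RPF and 3 mRNA libraries each. The Torin1 group was WT cells that received 200 nM Torin1, a small molecule that blocks the ATP site of mTOR, for 3 h. The C1483Y group, by its labels, carried an Mtor allele edited with CRISPR, c.G4448A, which encodes C1483Y, and received vehicle. The labels name a single edited genotype and do not say how many clones it stands for. The WT group was NIH3T3 given vehicle. The labels do not say that the 3 libraries of a group came from separate cultures, so the p-values measure the spread between libraries, which may be technical.

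Hsp70 and Hsp90 chaperones use ATP to bind and release unfolded or unstable client proteins. J-domain proteins such as Dnaja1 and Dnajb1 hand clients to Hsp70 and start its ATPase, Hspa4 and Hsph1 exchange its nucleotide, and Stip1 bridges Hsp70 and Hsp90. Hspa8 and Hsp90ab1 are the constitutive forms, made in quantity by growing fibroblasts, while Hsp90aa1, Hsph1, Dnajb1 and Hspb1 are known for strong induction by heat through Hsf1, whose binding elements repeat the unit NGAAN in alternating orientation. The mTOR kinase promotes cap-dependent translation, above all of mRNAs that begin with a pyrimidine tract.

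The libraries held 4.681 to 42.82 M gene reads in RPF and 4.418 to 94.3 M in mRNA. The 3 RPF libraries labelled C1483Y stood apart from the other 6. The 8 fibroblast markers (Col1a1, Col1a2, Col3a1, Sparc, Fn1, Pdgfrb, Thy1 and Lum) summed to 203 to 780 CPM (counts scaled to library depth) there, against 10148 to 17362 CPM in Torin1 and 11487 to 19553 CPM in WT libraries, and Lum was at 0 in all 3 libraries labelled C1483Y. The 4 neuron markers (Tubb3, Map2, Rbfox3 and Syt1) summed to 923 to 1187 CPM in libraries labelled C1483Y, against 1.42 to 22.7 CPM in Torin1 and 15.6 to 22.2 CPM in WT; nearly all of this was Tubb3, and Rbfox3 was at 0 in all 9 RPF libraries. Cdkn2a had 467 to 1447 reads in libraries labelled C1483Y, against 0 in Torin1 and at most 4 in WT. Mtor, the edited gene, had reads in all 9 RPF libraries, 209 to 2328 each, but read counts do not show a base change. In mRNA, Cdkn2a had 0 reads in every library. Replicates 1 and 3 labelled C1483Y stood apart there in the fibroblast and neuron markers and replicate 2 did not. That replicate 2 and Torin1 replicate 3 were nearly the same library (r = 0.999 across 7121 genes on the log2 scale, against 0.482 for the next pair). The 4 epithelium markers (Epcam, Cdh1, Krt8 and Krt18) summed to 27.5 to 113 CPM in RPF libraries labelled C1483Y, mostly Krt18, against at most 0.0587 CPM in Torin1 and 0 in WT. The 4 leukocyte markers (Ptprc, Cd68, Cd14 and Laptm5) were at 0 in libraries labelled C1483Y, against 10.7 to 24.2 CPM in Torin1 and 3.29 to 18.7 CPM in WT, with Ptprc and Laptm5 at 0 in all 9. Whether all libraries came from the labelled line was not tested, nor was the part of these differences in the results below. The mRNA and translation changes of Hspa8 and both Hsp90 genes are also given without the near-identical libraries.

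Hspa8 was the only one of the 9 genes to pass the test in RPF under Torin1. This gene, on chromosome 9 from 40801276 to 40805202 (GRCm38.p6), encodes Hsc70, the constitutive Hsp70 of the cytosol. Its RPF level, in CPM scaled by TMM factors, was 1594, 1079 and 1345 in the 3 Torin1 libraries, against 5228, 6094 and 5059 in the 3 WT libraries. All 3 Torin1 values lay far below every WT value. The means were 1339 ± 257 CPM in Torin1 and 5460 ± 555 CPM in WT (SD, n = 3 each), a log2 fold change of -2.03 ± 0.22 (SE), and edgeR's quasi-likelihood test gave an adjusted p of 0.00142. Hspa8 ranked 11 by p among the 11085 genes tested. The call held under 11 of 11 alternative settings, with log2 fold changes from -2.08 to -1.90. CPM scaled in this way are relative to the other footprints of a library, so a change common to most genes would not show. In such bulk libraries a lower relative level from fewer cells carrying an mRNA and from fewer ribosomes per cell cannot be told apart.

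Hsp90ab1 followed at a smaller size and just outside the threshold. It lies on chromosome 17 from 45567778 to 45573261 and encodes Hsp90 beta, the constitutive Hsp90. Its RPF level was 3065, 2746 and 2517 CPM in Torin1 libraries, against 5419, 5798 and 5293 CPM in WT libraries. The ranges were well separated and the spread within each group was small. The log2 fold change was -0.99 ± 0.21 with an adjusted p of 0.0653 in edgeR, rank 89. It passed under 3 of the 11 alternatives (no filter on low counts, adjusted p 0.0355; DESeq2, 0.0263; only the Torin1 and WT libraries in the fit, 0.0339), and its adjusted p ranged from 0.0263 to 0.887.

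The inducible Hsp90, Hsp90aa1, had overlapping RPF levels in Torin1 and WT. It lies on chromosome 12 from 110691036 to 110696395 and encodes Hsp90 alpha. Its RPF level was 2239, 2723 and 1940 CPM in Torin1 libraries, against 2216, 2584 and 2283 CPM in WT libraries. The Torin1 values lay on both sides of the WT values. The log2 fold change was -0.04 ± 0.22 with an adjusted p of 1, and it took either sign among the alternatives, from -0.18 to 0.09.

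Of the 3 co-chaperones, none passed the test in Torin1 against WT, but both J-domain genes lay below the WT range. Dnajb1, the main J-domain partner of Hsp70 in the heat shock response, had 29.8, 25.0 and 32.1 CPM in Torin1 RPF libraries, against 49.7, 49.7 and 85.7 CPM in WT. Dnaja1, a farnesylated J-domain protein, had 231, 234 and 142 CPM in Torin1, against 302, 250 and 335 CPM in WT. The lowest WT value of Dnaja1 was close to the highest Torin1 value, while those of Dnajb1 were further apart. The log2 fold change was -1.09 ± 0.45 for Dnajb1 (unadjusted p 0.0348) and -0.55 ± 0.30 for Dnaja1, with adjusted p of 1 in edgeR for both. Stip1, the adaptor also called Hop, had 611, 497 and 433 CPM in Torin1 and 582, 638 and 602 CPM in WT, overlapping ranges with a log2 fold change of -0.24 ± 0.24 and an adjusted p of 1.

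The Hsp110 nucleotide exchange factors did not pass the test. Hsph1, or Hsp105, had 270, 290 and 178 CPM in Torin1 RPF libraries, against 356, 366 and 335 CPM in WT, so that the ranges did not overlap. Hspa4 had 571, 645 and 537 CPM in Torin1, against 673, 679 and 542 CPM in WT, with overlap. The log2 fold changes were -0.52 ± 0.39 for Hsph1 and -0.11 ± 0.26 for Hspa4, both with an adjusted p of 1. Hspb1, or Hsp25, was not detectable at this depth in either group: it had 0 reads in the 3 Torin1 libraries and 1 read in the 3 WT libraries, where 3 reads over a group would have been 0.0401 CPM in Torin1 and 0.0411 CPM in WT.

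Counted together, 1 of the 8 genes above the detection limit fell in RPF under Torin1 and none rose. Of the 11085 genes tested, 0.740% fell and 0.00902% rose, 0.749% in all. Of the 8 genes above the detection limit, 5 had all 3 Torin1 libraries below the WT range (Hspa8, Hsp90ab1, Hsph1, Dnaja1 and Dnajb1), where 10.7% of all genes tested did, and 0 lay above it, where 8.48% did. Such counts, here and below, depend on the spread between libraries, which was smaller for these 8 genes. Their median coefficient of variation was 17.4% in Torin1 and 9.23% in WT, against 32.8% and 25.7% over genes averaging 10 CPM or more. The 5 of 8 is therefore not shown to be an excess over genes of like spread. All 8 log2 fold changes were below 0, with a median of -0.53, against a median of 0.03 over all genes tested. Hspa4 and Hsp90aa1 had positive fold changes under some alternatives.

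**Figure D1:**
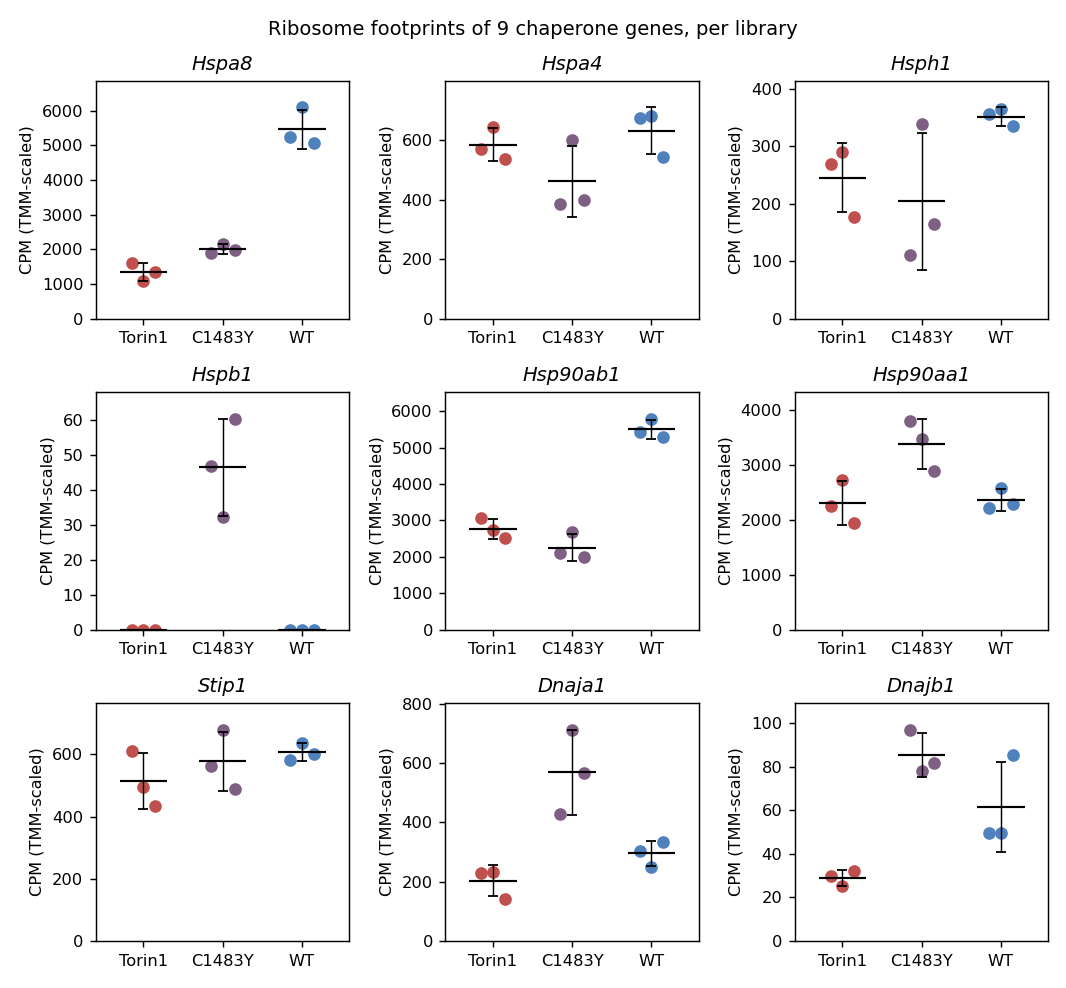
RPF level in CPM (TMM-scaled) of each of the 9 genes in each library of the Torin1, C1483Y and WT groups; points are libraries, horizontal lines the means and bars the SD over 3 libraries. Hspa8 and Hsp90ab1 are low in Torin1 and C1483Y libraries and high in WT, Hsp90aa1, Dnaja1 and Dnajb1 are highest on average in C1483Y, and Hspb1 has reads above 1 CPM in C1483Y libraries alone.

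**Figure D2:**
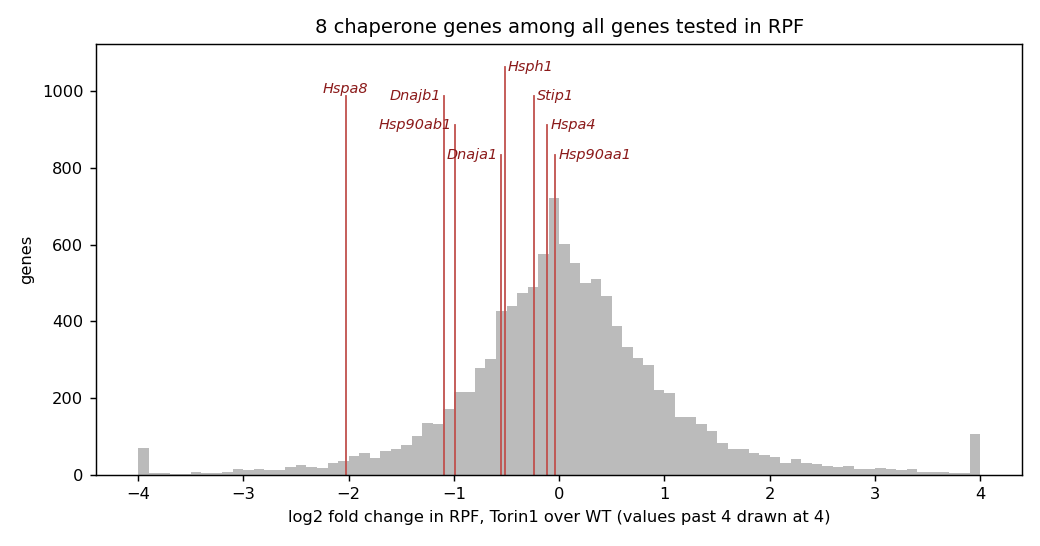
Histogram of the log2 fold change in RPF, Torin1 over WT, for the 11085 genes tested, with values beyond 4 in either direction drawn at the edge; vertical lines mark 8 of the chaperone genes. Hspa8 stands in the lower tail at -2.03, Dnajb1 and Hsp90ab1 near -1, and the other 5 between -0.55 and -0.04.

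Hspa8 took a smaller share of the reads of all 9 genes under Torin1. It made up 18.5%, 13.1% and 18.9% of them in Torin1 RPF libraries, against 35.3%, 37.0% and 34.8% in WT. The 9 genes together held 0.856%, 0.992% and 0.782% of gene reads in Torin1, against 1.5%, 1.75% and 1.56% in WT. Both shares were lower in every Torin1 library than in any WT library. The total is moved by Tmem38b, which alone took 26.9%, 0.0910% and 12.9% of gene reads in Torin1 and 9.43%, 0.0424% and 1.22% in WT. Without Tmem38b in the total, the 9 genes held 1.17%, 0.992% and 0.897% in Torin1, against 1.66%, 1.75% and 1.58% in WT, still without overlap. Of the 9 genes, Hspa8 (418315 reads) and Hsp90ab1 (410674 reads) had the most RPF reads over the 3 WT libraries. The share of the 9 genes thus follows those 2 genes most and does not show a fall of the others. For the 2 shares with all genes in the total, a two-sided exact permutation test over 3 against 3 libraries gave p = 0.1 each, the smallest p that design allows.

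Ratios of related genes within a library restate the same reads in a form that needs no scaling between libraries, and are no separate support. The number of Hsp90aa1 reads per Hsp90ab1 read in RPF was 0.731, 0.992 and 0.771 in Torin1 and 1.81, 1.29 and 1.45 in libraries labelled C1483Y, against 0.409, 0.446 and 0.431 in WT. These 3 groups did not overlap, with C1483Y highest and WT lowest. Hspa8 reads per Hspa4 read numbered 2.79, 1.67 and 2.50 in Torin1 and 4.89, 3.60 and 4.96 in C1483Y, against 7.76, 8.97 and 9.34 in WT, again without overlap, with Torin1 lowest. For each ratio and each group against WT the two-sided exact permutation test gave p = 0.1, the smallest possible, as it must for groups without overlap. In mRNA both ratios overlapped between each group and WT.

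**Figure D3:**
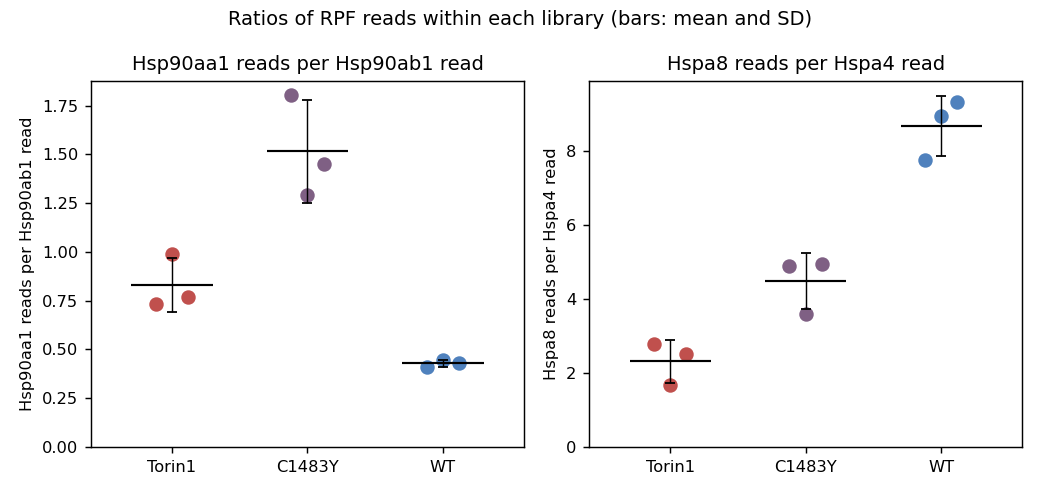
Hsp90aa1 reads per Hsp90ab1 read and Hspa8 reads per Hspa4 read in each RPF library of the Torin1, C1483Y and WT groups; points are libraries, lines the means and bars the SD. The first ratio is highest in C1483Y and lowest in WT, and the second is lowest in Torin1 and highest in WT.

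The comparison of C1483Y with WT shares its WT libraries with that of Torin1. In it 3 of the 9 genes passed the test: Hspa8 and Hsp90ab1 fell and Hspb1 rose. Hspb1 passed the filter on low counts only through the libraries labelled C1483Y, where it was high, so its call is no separate support. Over all 11085 genes 10.7% fell and 7.91% rose, so passing the test was far more common here than under Torin1. Hspa8 had 1887, 2160 and 1979 CPM in libraries labelled C1483Y, against 5228, 6094 and 5059 CPM in WT, a log2 fold change of -1.44 ± 0.22 with an adjusted p of 0.00126 in edgeR. Hsp90ab1 had 2095, 2686 and 1987 CPM in libraries labelled C1483Y, against 5419, 5798 and 5293 CPM in WT, and its log2 fold change was -1.29 ± 0.21 with an adjusted p of 0.00179. Both genes were below the WT range in all 3 libraries, and both calls held under 11 of 11 alternatives. Both have many processed pseudogenes, reads that fit more than 1 place did not enter the counts, and such reads were 37.8% to 47.5% of counted lines in libraries labelled C1483Y, against 26.9% to 35.0% in WT (22.2% to 29.8% in Torin1). Annotated pseudogenes took 4106 to 8261 ppm of gene reads in libraries labelled C1483Y, against 533 to 961 in WT, and the part of this difference in the 2 calls was not tested.

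Among the 9 genes, Hspb1 alone had RPF reads nearly confined to the libraries labelled C1483Y. Outside them, Hspa1l (3376 reads in C1483Y, 17 in Torin1, 0 in WT) and Hspa12a (1172 in C1483Y, 0 in Torin1, 10 in WT) shared this trait. Hspb1 had 206, 166 and 269 reads in the libraries labelled C1483Y (46.9, 32.2 and 60.2 CPM), against 1, 0 and 0 reads in WT, so that the ranges were far apart. Pooled over each group and divided by TMM-scaled depth, the ratio of the reads was 3338, with an exact 95% interval of 597 to 132042 that covers counting error only. The adjusted p in edgeR was 0.00345, for a gene that passed the filter on low counts only through the group where it was high. No Hspb1 read was counted in any of the 9 mRNA libraries, those labelled C1483Y included. The same RPF libraries carried the low fibroblast markers, the neuron markers and the Cdkn2a reads given above, and whether these differences and the Hspb1 reads have the same source was not tested.

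Dnaja1 and Hsp90aa1 also had all 3 libraries labelled C1483Y above the WT range without passing the test. Dnaja1 had 427, 712 and 566 CPM in those libraries, against 302, 250 and 335 CPM in WT, a log2 fold change of 0.94 ± 0.30 with an adjusted p of 0.0514. It passed in DESeq2, with an adjusted p of 0.0271, and in none of the other 10 alternatives. Hsp90aa1 had 3785, 3468 and 2884 CPM in C1483Y, against 2216, 2584 and 2283 CPM in WT, a log2 fold change of 0.52 ± 0.22 with an adjusted p of 0.125. Counting Hspb1, 3 of the 9 genes lay above the WT range, where 16.5% of all genes tested did, and 2 lay below it, where 27.4% did.

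The other 4 genes overlapped between C1483Y and WT. Dnajb1 had 97.1, 78.1 and 81.7 CPM in libraries labelled C1483Y and 49.7, 49.7 and 85.7 CPM in WT. Hsph1 had 111, 338 and 164 CPM in libraries labelled C1483Y and 356, 366 and 335 CPM in WT, the highest coefficient of variation of the 9 genes in that group (58.2%). Without C1483Y replicate 2, Hsph1 (log2 fold change -1.38, adjusted p 0.00701) and Hspa4 (-0.72, adjusted p 0.0380) passed as lower, which raised the number of genes called to 5 of 9. In the same fit 26.5% of 11906 genes passed, against 18.6% of 11085 with all libraries. With all libraries the log2 fold changes were 0.47 ± 0.45 for Dnajb1, -0.78 ± 0.39 for Hsph1, -0.45 ± 0.26 for Hspa4 and -0.07 ± 0.24 for Stip1, with adjusted p from 0.198 to 0.878.

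Set directly against Torin1, the libraries labelled C1483Y were higher in 3 of the 9 genes and lower in none, where 10.1% of all genes tested were higher and 11.4% lower. Dnaja1 was higher by 1.49 ± 0.31 on the log2 scale with an adjusted p of 0.00572, under 11 of 11 alternatives. Dnajb1 was higher by 1.56 ± 0.46 with an adjusted p of 0.0321, a call that held under 3 of 11 alternatives. Hspb1, with 641 reads in libraries labelled C1483Y against 0 in Torin1, was at least 1141-fold higher, taking 3 reads over the Torin1 group as the floor. Its adjusted p was 0.0018, but here too it passed the filter on low counts only through the libraries labelled C1483Y. Hspa8 (0.58 ± 0.21, adjusted p 0.0762) and Hsp90aa1 (0.55 ± 0.22, adjusted p 0.0938) did not pass, although all 3 libraries labelled C1483Y were above the Torin1 range for both. In all, 5 of the 9 genes, Hspb1 among them, lay above that range, as did 17.0% of all genes tested, and none below it, as did 26.6%.

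Promoter sequence was examined because heat shock elements are a known feature of this gene family and because Hspb1, Dnaja1 and Dnajb1 were higher in C1483Y than in Torin1. RefSeq start sites (GRCm38.p6) were held for 6 of the 9 genes, 10 starts in all. The 250 bases before each start were searched for a pair of inverted units, spelled GAANNTTC or TTCNNGAA; each reads the same on both strands, and the pair can overlap. Among 32851 windows of that length, 6.69% held GAANNTTC, 7.17% held TTCNNGAA and 12.8% held at least 1 of them. Hspb1 held 2 matches, starting 117 and 97 bases before its start, and the first of the Dnaja1 starts held 1, at 124 bases. In the 250 bases of both, shown in full because they held matches and belong to genes that were higher in C1483Y than in Torin1, capitals mark the matches. The windows are chr5:135887669-135887918 on the plus strand for Hspb1 and chr4:40722218-40722467 on the plus strand for Dnaja1.
Hspb1: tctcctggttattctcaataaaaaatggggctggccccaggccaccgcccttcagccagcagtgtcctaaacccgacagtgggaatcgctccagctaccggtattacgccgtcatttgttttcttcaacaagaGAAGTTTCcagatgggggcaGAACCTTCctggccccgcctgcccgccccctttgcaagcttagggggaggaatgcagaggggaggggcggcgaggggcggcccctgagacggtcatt
Dnaja1: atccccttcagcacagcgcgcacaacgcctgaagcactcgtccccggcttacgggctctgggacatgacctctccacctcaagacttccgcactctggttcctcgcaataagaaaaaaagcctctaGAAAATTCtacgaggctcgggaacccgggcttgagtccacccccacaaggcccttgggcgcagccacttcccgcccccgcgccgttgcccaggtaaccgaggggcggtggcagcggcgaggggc
Hsph1, below the WT range under Torin1, had a match 33 bases before its first start, shown in 30 bases of chr5:149636351-149636380 on the minus strand.
Hsph1: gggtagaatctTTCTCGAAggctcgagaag
Windows of Hspa4 and Stip1 and those of starts 2 and 3 of Dnaja1 held no match of these letters. Nor did the 2 windows of Dnajb1, which was also higher in C1483Y than in Torin1. No start was held for Hspa8, Hsp90ab1 and Hsp90aa1, so their sequence was not examined. A stricter form, the same pairs extended to 3 alternating units with NN between them, was in 0 of the 10 windows and in 0.466% of all windows. A start at C followed by at least 4 pyrimidines is the form of a TOP mRNA. It was found at 0 of the 10 starts, none of which belongs to Hspa8 or an Hsp90 gene, and at 2.51% of all starts. These are matches of letters and describe no binding.

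The mRNA libraries gave no call for any of the 8 genes they measured, in edgeR or in DESeq2. In Torin1 against WT 0.0140% of 7121 genes passed the test, and in C1483Y against WT 0.323% did; at an unadjusted p under 0.05 there were 507 and 621 genes. Hspa8 mRNA was 7760, 4872 and 7946 CPM in Torin1 and 5726, 5754 and 2006 CPM in C1483Y, against 5615, 8048 and 4825 CPM in WT. Torin1 values lay on both sides of the WT values, unlike the RPF values of the same gene. Its log2 fold change in Torin1 against WT was 0.15 ± 0.44 with an adjusted p of 1, and 0.03 without the near-identical pair of libraries. Reads that fit more than 1 place were 49.3% to 75.1% of counted lines in Torin1 mRNA and 65.6% to 66.4% in WT mRNA. In C1483Y mRNA replicates 1, 2 and 3 they were 95.9%, 59.5% and 90.8%. Their part in the mRNA values of Hspa8 and Hsp90ab1, and in the comparisons of RPF with mRNA below, was not tested.

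Both Hsp90 mRNAs were higher on average in Torin1 than in WT, with wide errors. Hsp90ab1 mRNA was 4116, 4155 and 5687 CPM in Torin1, against 2852, 5284 and 2051 CPM in WT, overlapping ranges with a log2 fold change of 0.45 ± 0.56 (0.28 without the near-identical pair). Hsp90aa1 mRNA was 580, 571 and 604 CPM in Torin1, against 362, 78.1 and 437 CPM in WT. All 3 of these Torin1 values were above the WT range, as in 5.39% of genes tested, no chaperone mRNA was below it, as in 4.42%, but the log2 fold change was 1.00 ± 1.25 with an adjusted p of 1. In C1483Y the same mRNAs were 1855, 4133 and 1373 CPM for Hsp90ab1 and 1084, 431 and 739 CPM for Hsp90aa1, each overlapping WT. The log2 fold changes in C1483Y against WT were -0.46 ± 0.44 for Hspa8, -0.47 ± 0.56 for Hsp90ab1 and 1.36 ± 1.26 for Hsp90aa1. Without the near-identical pair they were -0.76, -1.16 and 1.56, and with DESeq2 size factors, which move the median of all genes by 1.49 on the log2 scale, those of Hspa8 and Hsp90ab1 were 1.52 and 1.47.

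The other chaperone mRNAs were too unevenly counted for a direction. Hsph1 had 755, 1 and 2 mRNA reads in Torin1, 44, 0 and 1775 in C1483Y and 0, 0 and 6459 in WT libraries. Dnaja1 had 269, 7028 and 6 reads in Torin1, 140, 2 and 186 in C1483Y and 1096, 13253 and 6955 in WT. C1483Y replicate 2, with 42.29 M gene reads, thus held 0 reads of Hsph1 and 2 of Dnaja1, although every RPF library held at least 486 reads of Hsph1 and 1873 of Dnaja1. Among the 8 genes the median coefficient of variation within a group was 59.1% in Torin1, 71.7% in C1483Y and 74.1% in WT mRNA, against 17.4%, 16.7% and 9.23% in the same groups of RPF. Over all genes averaging 10 CPM or more in the group the medians were 104% in Torin1, 154% in C1483Y and 108% in WT mRNA, and 32.8%, 59.4% and 25.7% in RPF. Hspa4, Dnajb1 and Stip1 mRNA overlapped between groups in both comparisons, and in C1483Y against WT all 8 genes overlapped, where 3.23% of genes tested lay above the WT range and 9.49% below it.

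**Figure D4:**
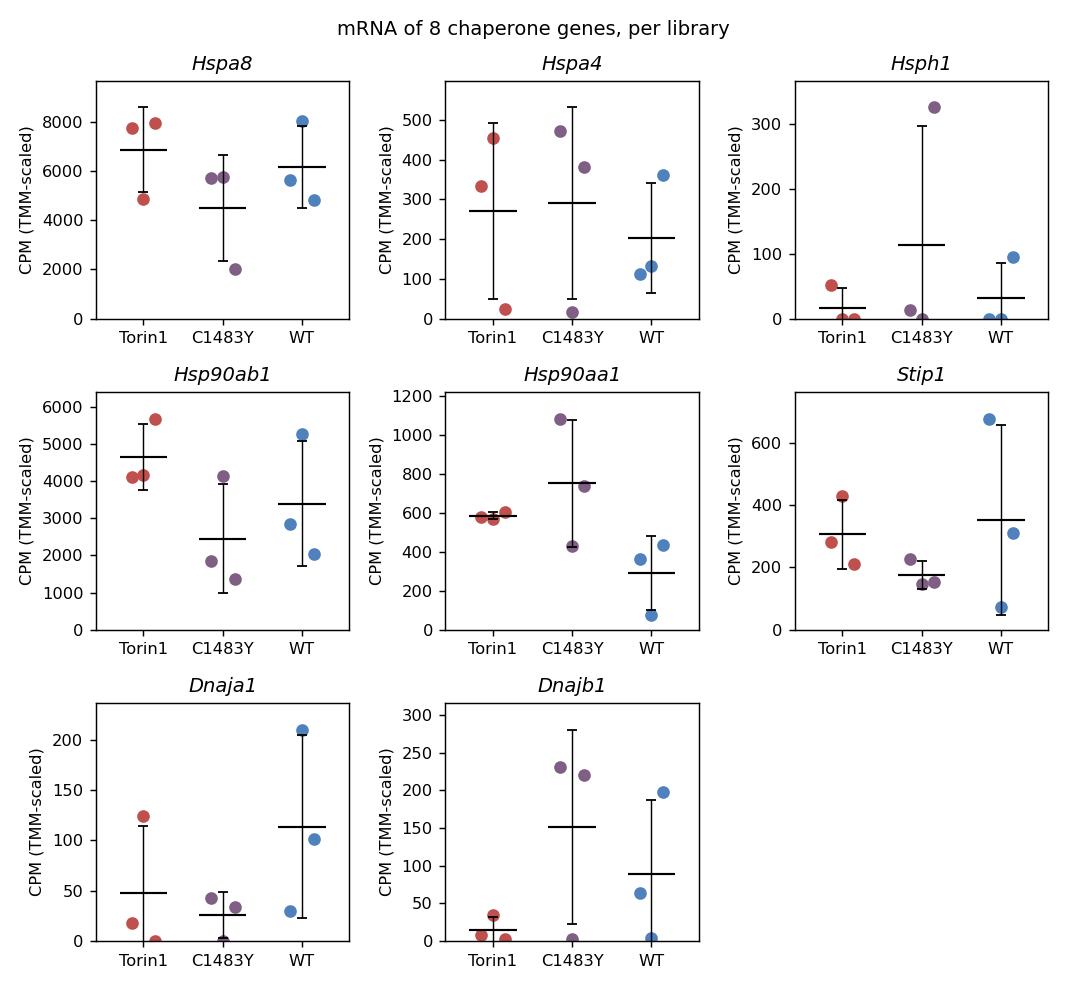
mRNA level in CPM (TMM-scaled) of 8 chaperone genes in each library of the Torin1, C1483Y and WT groups; points are libraries, lines the means and bars the SD, which end at 0 where they would pass below it. For Hsph1, Dnaja1 and Dnajb1 each plot has libraries near 0 beside others of the same group far above it, while Hspa8 has at least 2006 CPM in all 9 libraries.

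Translational efficiency (TE) sets the footprints of a gene against its own mRNA, and a change in TE was tested as an assay-by-cells interaction. None of the 8 genes passed in Torin1 against WT, where 0.0283% of 7072 genes did, and none in C1483Y against WT, where no gene did in edgeR (937 genes at an unadjusted p under 0.05, and 689 genes in DESeq2 after adjustment). Hspa8 came closest, with a log2 change in TE of -2.18 ± 0.57 in Torin1 against WT, an unadjusted p of 0.000555 and an adjusted p of 0.171. It passed in 1 of 19 alternatives, with only the Torin1 and WT libraries in the fit (-2.03, adjusted p 0.0487), and gave -2.06 with an adjusted p of 0.0736 without the near-identical mRNA pair. Its adjusted p ranged from 0.0487 to 0.509 and its sign was the same throughout.

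Expressed as the ratio of mean CPM in RPF to mean CPM in mRNA, Hspa8 had 0.195 in Torin1 and 0.447 in C1483Y, against 0.886 in WT. The ratio for Hsp90ab1 was 0.597 in Torin1 and 0.919 in C1483Y, against 1.62 in WT, and for Hsp90aa1 3.93 in Torin1 and 4.50 in C1483Y, against 8.07 in WT. Hspa4 also had its highest ratio in WT (2.16 in Torin1, 1.59 in C1483Y and 3.12 in WT). The other 4 genes did not: Hsph1 had 14.4 in Torin1, 1.81 in C1483Y and 11.2 in WT, and Dnajb1 1.92 in Torin1, 0.566 in C1483Y and 0.697 in WT. Dnaja1 had 4.25 in Torin1 and 22.1 in C1483Y, against 2.6 in WT, and Stip1 1.68 in Torin1 and 3.30 in C1483Y, against 1.72 in WT. These ratios include the near-identical libraries, without which Hsph1 was highest in WT (9.58 in Torin1, 1.2 in C1483Y, 11.2 in WT) and the other 7 genes were highest in the same group as before. The tested TE changes for Torin1 against WT were -1.44 ± 0.62 for Hsp90ab1 (adjusted p 0.302) and -1.04 ± 0.78 for Hsp90aa1 (adjusted p 0.999). Without the near-identical pair they were -1.27 (adjusted p 0.179) and -1.02 (adjusted p 0.628). The TE changes of Dnajb1 (1.46 ± 2.48) and Dnaja1 (0.71 ± 2.01) had wide errors and an adjusted p of 0.999, and that of Dnaja1 changed sign without 1 library. For C1483Y against WT the TE change of Hspa8 was -0.99 ± 0.56, that of Hsp90ab1 -0.82 ± 0.61 and that of Hsp90aa1 -0.84 ± 0.78, with adjusted p of 0.470, 0.623 and 0.720 in that order of genes. Without the near-identical pair these were -0.68 for Hspa8 (adjusted p 0.436), -0.13 for Hsp90ab1 (adjusted p 0.902) and -1.04 for Hsp90aa1 (adjusted p 0.379). Dnaja1 had a TE change of 3.09 ± 2.05 with an adjusted p of 0.553.

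**Figure D5:**
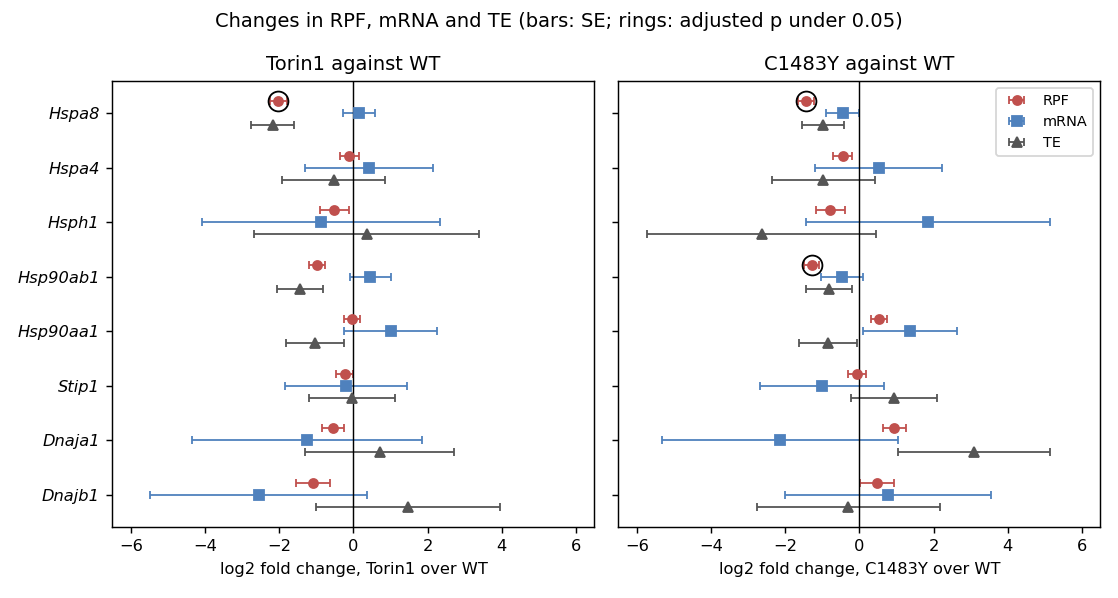
Log2 fold change of 8 chaperone genes in RPF, mRNA and TE, for Torin1 against WT and C1483Y against WT; bars are SE and rings mark an adjusted p under 0.05 in edgeR. The 3 ringed points are RPF values: Hspa8 at -2.03 in Torin1, and Hspa8 at -1.44 and Hsp90ab1 at -1.29 in C1483Y.

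Genes with a pattern like that of Hspa8 were ranked by Pearson correlation of log2(CPM + 1) over the 9 RPF libraries, among 8098 genes averaging 10 CPM or more. The first 5 were Tpt1 (0.981), Rpl21 (0.974), Gapdh (0.972), Serpinh1 (0.967) and Actg1 (0.966). The points share their libraries and scaling, and all 3 groups are among them. Tpt1, a translationally controlled tumour protein mRNA of the TOP class, had 159 ± 31.8 CPM in Torin1 and 273 ± 39.6 CPM in C1483Y, against 1182 ± 85.1 CPM in WT. Serpinh1, the collagen chaperone Hsp47 of the endoplasmic reticulum, had 348 ± 84.9 CPM in Torin1 and 577 ± 117 CPM in C1483Y, against 1309 ± 386 CPM in WT. Of the chaperone genes, Hsp90ab1 stood at 0.853, rank 45, and the next, Stip1, at 0.564, rank 343.

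Further chaperones were read from 4 lists. In Torin1 against WT, 0 of 53 tested genes among the other cytosolic chaperones passed, with a median log2 fold change of -0.35; the 2 with the smallest p were Chordc1, an Hsp90 co-chaperone (-1.21 ± 0.39, adjusted p 0.558), and Hspa1l, an Hsp70 of the testis (17 reads in Torin1, 0 in WT, at least 5.53-fold higher, adjusted p 0.582). Of 28 endoplasmic reticulum chaperones 2 fell: Serpinh1 by 1.91 ± 0.30 on the log2 scale (adjusted p 0.0106) and P4hb, a protein disulfide isomerase, by 1.21 ± 0.23 (adjusted p 0.0316). None of 12 mitochondrial chaperones or of 14 subunits of TRiC and prefoldin, which fold actin and tubulin, passed. Over all genes tested 0.740% fell and 0.749% passed in all. Their medians were -0.44 for the endoplasmic reticulum, -0.27 for mitochondria and -0.55 for TRiC and prefoldin, whose 14 values were all below 0, against 0.03 for all genes tested.

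In C1483Y against WT, 5 of the 53 other cytosolic chaperones rose and 5 fell, 18.9% in all against 18.6% of all genes tested. Among the 8 with the smallest p, 4 rose: Ptges3, or p23, an Hsp90 co-chaperone (1260 ± 276 CPM in C1483Y, 363 ± 60.8 CPM in WT), St13, the Hsp70-interacting protein Hip (1101 ± 287 CPM in C1483Y, 349 ± 30.1 CPM in WT), Hspa2 (213 ± 53.5 CPM in C1483Y, 15.1 ± 9.51 CPM in WT) and Hspa1l, with 3376 reads in C1483Y and 0 in WT, at least 5860-fold higher. The other 4 fell: the small heat shock proteins Cryab (4.11 ± 4.75 CPM in C1483Y, 387 ± 66.7 CPM in WT) and Hspb8 (1.06 ± 1.15 CPM in C1483Y, 56.6 ± 17.2 CPM in WT), Ahsa2 (0.833 ± 1.08 CPM in C1483Y, 50.2 ± 12.1 CPM in WT) and Hspa12b, with 0 reads in C1483Y and 1213 in WT, at least 77.6-fold lower. Adjusted p for these 8 ran from 0.00041 to 0.00905. Hspb1 thus rose in the libraries in which Cryab and Hspb8, of the same protein family, fell. Hspa1l shares sequence with near-identical Hsp70 genes, and its level is uncertain. It passed the filter on low counts only through the libraries labelled C1483Y, so its call is no separate support. Hspa12b, without reads in those libraries, passed it only through the other groups.

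The remaining lists gave 3 of 28 endoplasmic reticulum chaperones, 3 of 12 mitochondrial chaperones and 4 of 14 TRiC and prefoldin subunits past the test in C1483Y against WT, which is 10.7%, 25% and 28.6% of these lists, against 18.6% of all genes tested. Ppib, a peptidyl-prolyl isomerase of the secretory pathway, rose by 1.63 ± 0.29 on the log2 scale, while P4hb fell by 1.26 ± 0.23 and Serpinh1 fell by 1.18 ± 0.30. The mitochondrial Hspe1 (1.89 ± 0.40) and Grpel2 (2.20 ± 0.55) rose and the protease Lonp1 (-1.23 ± 0.33) fell. Of TRiC and prefoldin, the prefoldin subunits Vbp1 (2.57 ± 0.52) and Pfdn5 (1.88 ± 0.43) rose and the TRiC subunits Cct2 (-0.92 ± 0.27) and Cct6a (-1.02 ± 0.31) fell. Adjusted p of these 10 genes ran from 0.00322 to 0.0404.

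Against Torin1, the libraries labelled C1483Y had 12 of the 53 other cytosolic chaperones higher and 6 lower, 34.0% against 21.5% of all genes tested in either direction. By direction, 10.1% of all genes tested were higher and 11.4% lower. By smallest p, Ptges3 was higher by 2.32 ± 0.29 on the log2 scale, St13 by 2.07 ± 0.30 and Hspa2 by 3.45 ± 0.64, and Hspa1l by 9.78 ± 1.23 from 3376 reads in C1483Y against 17 in Torin1. Hspa12a was at least 2086-fold higher (1172 reads in C1483Y, 0 in Torin1). Hspa1l and Hspa12a passed the filter on low counts only through the libraries labelled C1483Y, so their calls are no separate support. Cryab (-5.97 ± 0.87), Hspb8 (-5.69 ± 1.08) and Hspa12b (0 reads in C1483Y, 1375 in Torin1, at least 85.8-fold lower) were lower, and adjusted p of these 8 ran from 0.000367 to 0.0078. Of the endoplasmic reticulum list 5 of 28 (17.9%) were higher, among them Ppib (2.77 ± 0.31), Hyou1 (1.12 ± 0.26), Hspa13 (1.61 ± 0.39) and Manf (2.07 ± 0.60). Of TRiC and prefoldin 7 of 14 (50%) were higher, among them Pfdn5 (3.21 ± 0.45), Vbp1 (3.57 ± 0.54), Cct4 (1.41 ± 0.26) and Cct7 (1.1 ± 0.24). Of the 12 mitochondrial chaperones 25% passed in either direction: Hspe1 (2.67 ± 0.41) and Grpel2 (2.44 ± 0.55) were higher and Lonp1 (-1.27 ± 0.33) lower.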

How the data were processed

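The authors' deposited files give whole-number read counts per gene symbol for each of 18 libraries, without normalization. Bowtie 1.1.2, TopHat2 2.1.1, HTSeq and the build mm10 are named in the submitters' processing notes; their order, settings and annotation: not given in the sources used here. Per the labels' protocols, RPF were made with RNase I and mRNA was fragmented by heat, and no molecular identifiers are mentioned, so PCR copies count as reads and intervals cover counting error only. Of 24035 symbols, 22550 matched RefSeq; 27 lines carrying dates (0.089% to 0.264% of gene counts) and 5 summary lines were left out.

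Counts were tested with edgeR 4.0.16 in R 4.3.3 (quasi-likelihood, TMM scaling, filterByExpr), over the 9 libraries of an assay, or over 18 with the interaction of assay and cells for TE. P-values were adjusted by Benjamini-Hochberg over all genes tested, with a threshold of 0.05. The code was tested on simulated data with a spread capped below that of these data. This checked the code and not its power at the spread seen here. CPM are TMM-scaled, SE is the log2 fold change over the square root of F, and a fold against 0 reads uses 3 reads over the group. Alternatives were DESeq2 1.42.0, its size factors, no filter, a replicate block, other sets of libraries in the fit and each library left out; the shares without Tmem38b and the RPF to mRNA ratios without the near-identical libraries were added after seeing the data. The genes and lists were chosen with earlier results of these data known. Named beside the 9 genes were list genes past the test, up to 8 of the cytosolic list and 4 of the others by smallest p, and the 5 genes most correlated with Hspa8. The files give no gene lengths, so levels of different genes were not compared.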

Additional observations from a re-analysis of the deposited data

How the results depend on the processing

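In RPF, the calls of Hspa8 in Torin1, of Hspa8 and Hsp90ab1 in C1483Y against WT and of Dnaja1 in C1483Y against Torin1 held in every alternative run. Those of Hspb1 in C1483Y also did, but it passed the filter on low counts only through the group where it was high. Its calls are thus no separate support. Hsp90ab1 in Torin1 did not have a stable side of the threshold. The mRNA values varied widely between libraries. Of 191 mRNA and 303 TE repeated values, 20 and 24 changed sign without passing the test. The cause of the shifts below was not tested.

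In Torin1 against WT, 83 genes passed in RPF; DESeq2 gave 160, a fit with only the groups compared 138, and leaving out 1 library 33 to 62, with 2 chaperone genes called in DESeq2, without the filter and with only the groups compared, and 1 in all leave-one-out fits. For C1483Y the RPF count of 2060 became 3312 in DESeq2 and 1163 to 3161 with 1 library left out (3 to 5 chaperone genes; 5 without C1483Y replicate 2). C1483Y against Torin1 gave 3647 in DESeq2, 1550 with only the groups compared, and 1599 to 3564 with 1 library left out (2 to 4 chaperone genes).

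In mRNA, Torin1 against WT gave 0 genes with DESeq2 size factors, without the filter, with the replicate block and without the near-identical libraries, 2 with only the groups compared, 499 in DESeq2 and 0 to 1 with 1 library left out. C1483Y against WT gave 0 with DESeq2 size factors, 14 without the filter, 502 in DESeq2, 145 without the near-identical libraries and 7 to 172 with 1 library left out. In TE, Torin1 gave 0 with DESeq2 size factors and with TMM over all libraries, 5 without the filter, 543 in DESeq2, 45 without the near-identical libraries, 10 with only the groups compared (1 chaperone gene, Hspa8) and 2 to 3 with 1 library left out. C1483Y gave 12 with DESeq2 size factors, 6 without the filter, 689 in DESeq2, 238 without the near-identical libraries and 0 to 78 with 1 library left out. No chaperone gene passed in mRNA under any of them, or in TE with 1 library left out.

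Sign changes in RPF were all near 0. In Torin1 against WT, Hsp90aa1 was 0.0315 with DESeq2 size factors and in DESeq2, and -0.178 to 0.0889 with 1 library left out, and Hspa4 was -0.212 to 0.0590. Stip1 in C1483Y against WT was 0.0102 with DESeq2 size factors and in DESeq2 and -0.237 to 0.0201 with 1 library left out, and against Torin1 -0.0073 to 0.264.

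In mRNA, Torin1 against WT, Hspa8 was -0.0463 without the filter and -0.0078 to 0.415 with 1 library left out, Hspa4 -0.18 to 1.14, Hsph1 3.32 with the replicate block and -9.61 to 12.10, and Stip1 0.0888 with the replicate block, 0.0165 without the near-identical libraries and -0.66 to 0.70. In C1483Y against WT, Hspa8 was 1.52, Hsp90ab1 1.47, Stip1 1.30 and Dnaja1 0.78 with DESeq2 size factors and in DESeq2 (a shift of the median of all genes by 1.49), Hspa4 was -0.0461 without the filter and -0.0697 to 1.15 with 1 library left out, and Hsph1 was -2.32 to 14.76.

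In TE, Torin1 against WT, Stip1 was 0.0737 with DESeq2 size factors, 0.0794 without the filter, 0.103 in DESeq2, 0.0239 with TMM over all libraries, 0.11 with only the groups compared and -0.94 to 0.42 with 1 library left out. Hsph1 was -1.73 with the replicate block, -0.21 without the near-identical libraries and -12.22 to 9.09, Dnaja1 -0.11 to 3.09 and Hspa4 -1.25 to 0.0683. In C1483Y against WT, Stip1 was -1.29 with DESeq2 size factors and -1.22 in DESeq2 (medians of all genes moved by -1.78 and -1.72), Dnajb1 0.18 without the filter and -1.60 to 0.32 with 1 library left out, and Hsph1 -15.15 to 1.56.

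The replicate numbers were not taken as a pairing: same-numbered Torin1 and WT RPF libraries deviated from their group means with correlations of 0.156, 0.043 and 0.026, although 5 of 6 libraries correlated best with their own number. With the replicate block 85 genes and 1 chaperone gene passed in RPF for Torin1, 1595 and 3 for C1483Y against WT, and 1950 and 2 for C1483Y against Torin1, where Dnajb1 no longer passed (adjusted p 0.0626).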
